A study of Mus musculus with 8 samples.

Results

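The matrix metalloproteases (MMPs), the ADAMTS proteases and the tissue inhibitors of metalloproteases (TIMPs) were described in Py230 tumours, made by injecting cells of that line of mouse mammary adenocarcinoma into hosts on a fatty or a regular diet. The members were taken by symbol, as every gene of the count table whose name is Mmp, Adamts or Timp followed by a number, with an optional a or b for Mmp. They numbered 46 of the 50143 genes listed, with 23 MMP, 19 ADAMTS and 4 TIMP genes. RNA was sequenced from 8 tumours, 4 per group, from female C57BL/6 mice whose ovaries had been removed at an age of 6 weeks, in both groups alike. Diets began 2 weeks later and ran for 6 weeks before Py230 cells were injected into mammary gland 4. Obese mice ate a high-fat diet with 60% of calories from fat (5.1 kcal/g) and became 35% heavier on average. Lean mice ate a diet with 10% of calories from fat (3.6 kcal/g). The tumours were collected at day 56. All come from 1 cell line, and the labels do not say whether each tumour had its own host. The p-values set the difference between groups against the spread between these tumours, which were taken as independent.

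MMPs are zinc-dependent enzymes that cut collagens and other matrix proteins, release growth factors from the matrix and open paths for invading cells. Most are secreted as inactive proenzymes, while the membrane types stay on the cell surface and can activate others, so RNA levels do not measure activity. The ADAMTS enzymes are secreted relatives with thrombospondin repeats. They trim procollagens, cut large proteoglycans such as versican, or act on microfibrils. TIMPs bind the active site of these enzymes. In mammary tumours many MMPs are known to be made by fibroblasts, macrophages and other host cells as well as by tumour cells. In bulk tumour RNA, a smaller number of cells of a type and less RNA per cell cannot be told apart.

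The libraries held 25.7 to 66.7 M counts. Levels are given as CPM, the counts scaled to a common library size of 1 M with TMM factors. A library with 0 counts of a gene allows up to 3 counts, which corresponded to 0.0494 to 0.124 CPM. Obese tumour 3 stood apart from its group. On the first principal component of the 1000 most variable genes it lay at 12.9, the other obese tumours at −136 to −96.5 and the lean tumours at 70.2 to 93.7. The summed level of 8 mammary epithelial markers was 744 CPM in obese tumour 3, 66.2 to 274 CPM in the other obese tumours and 1161 to 2497 CPM in lean tumours. Of these markers of the labelled tissue 4 of 8 were called lower and 0 higher, and all 8 were lower in every obese tumour than in any lean tumour.

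Of the 46 members, 15 were higher and 11 were lower in obese tumours, 12 were not called and 8 had too few counts for a test. A gene was called at an adjusted p under 0.05, from edgeR's quasi-likelihood test with Benjamini-Hochberg adjustment across the 14887 genes with enough counts. By that rule 59.2% of all tested genes were called, 30.9% higher and 28.4% lower, and the 26 members called of 38 tested are read against that background. With upper quartile in place of TMM factors, 41.2% of called genes were higher in obese tumours, against 52.1% of those called here, and 12 members were higher and 11 lower. Without obese tumour 3, 16 members were higher and 10 lower. The range of the 4 obese tumours lay wholly above that of the 4 lean tumours for 10 tested members and wholly below it for 8. Among all tested genes such separation held for 57.0%, with 28.9% above and 28.1% below. As a description of the members that passed the filter on counts, the median log2 change (obese minus lean) of these 38 was 0.99, beside −0.04 over all tested genes. Over the alternatives this member median ran from 0.56 (limma-voom with quality weights) to 1.11 (without obese tumour 4). By family the main fit gave a median of 1.84 for 18 MMP genes, −0.95 for 16 ADAMTS genes and −0.88 for 4 TIMP genes. The MMP genes were called higher in 10 and lower in 3 cases, or higher in 6 without any one of lean tumours 2, 3 and 4. The ADAMTS genes were called higher in 5 and lower in 7 cases, or lower in 3 without obese tumour 4. Of the TIMP genes 1 was lower and 0 were higher.

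**Figure D1:**
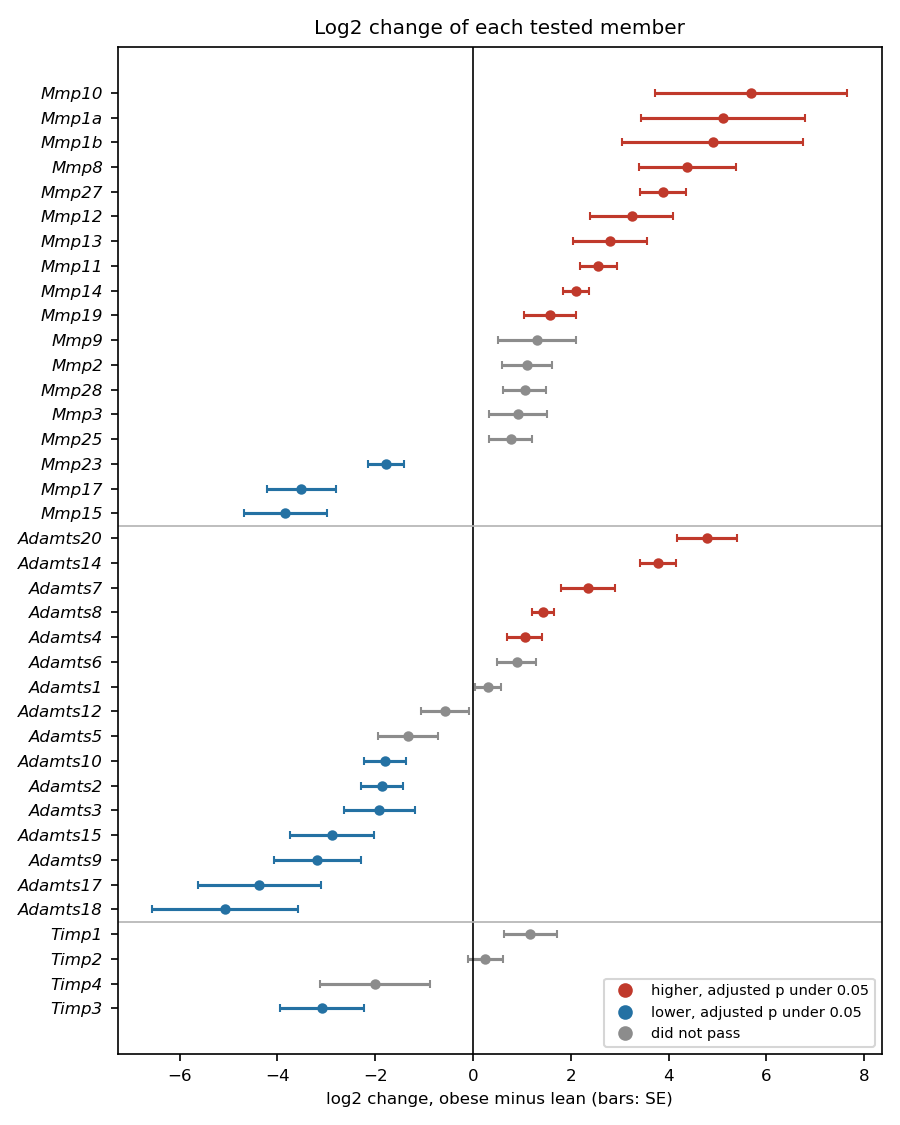
Log2 change (obese minus lean, horizontal axis) of the 38 tested members, with bars for the SE, grouped as MMP, ADAMTS and TIMP genes. Red points were called higher, blue points lower and grey points did not pass. The MMP changes run from −3.84 (Mmp15) to 5.69 (Mmp10) and the ADAMTS changes from −5.07 (Adamts18) to 4.79 (Adamts20).

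The membrane-type MMPs were called in both directions. Mmp14, whose product cuts collagen at the cell surface and activates the proenzyme of Mmp2 together with Timp2, had the highest mean level per kb of exon among MMP genes in obese tumours (ENSMUSG00000000957, chromosome 14, 54431612 to 54445364). It stood at 580.3, 775, 327 and 458 CPM in obese tumours 1 to 4 and 103, 138, 137 and 118 CPM in lean tumours 1 to 4. Every obese tumour lay above every lean tumour (log2 change 2.11 ± 0.26, edgeR adjusted p = 0.000671). Mmp15, another transmembrane MMP with collagen and proMmp2 among its substrates (ENSMUSG00000031790, chromosome 8, 95352268 to 95375080), stood at 1.86, 2.69, 20.6 and 3.05 CPM in obese tumours against 57.1, 103, 125 and 119 CPM in lean tumours. It was below the lean range in all obese tumours, and obese tumour 3 was the highest of them (log2 change −3.84 ± 0.85, edgeR adjusted p = 0.00700). Obese tumour 3 was also the highest of its group in the mammary epithelial markers, whose part was not tested. Among lean tumours, tumour 1 had the highest sum of these markers (2497 CPM) and the lowest Mmp15. Mmp15 had a log2 change of −4.42 with limma-voom, −5.06 with limma-voom with quality weights and −5.29 without obese tumour 3. Per kb of exon, the Mmp15 level divided by the Mmp14 level was 0.00354, 0.00383, 0.0694 and 0.00734 in obese tumours 1 to 4 and 0.612, 0.828, 1.0 and 1.11 in lean tumours 1 to 4. The levels were of similar size in lean tumours, and Mmp14 was far above Mmp15 in obese tumours.

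Of the MMPs that are held by a lipid anchor, Mmp17 fell and Mmp25 did not pass. Mmp17 stood at 0, 0.115, 0.193 and 0.144 CPM in obese tumours against 0.737, 2.07, 1.07 and 1.69 CPM in lean tumours, with no overlap (log2 change −3.51 ± 0.70, edgeR adjusted p = 0.00447). Its counts in obese tumours 1 to 4 were 0, 7, 10 and 6. Mmp17 passed the filter on counts mainly through lean tumours, so its call could hardly have gone the other way. Mmp25, known from leukocytes, ranged over 4.50 to 11.6 CPM in obese and 1.80 to 4.85 CPM in lean tumours (log2 change 0.77 ± 0.44, edgeR adjusted p = 0.153). Mmp23, a small type II membrane protease, stood at 1.49, 0.626, 1.28 and 1.78 CPM in obese tumours against 5.43, 3.64, 4.53 and 4.14 CPM in lean tumours. All obese tumours were below the lean range (log2 change −1.78 ± 0.37, edgeR adjusted p = 0.00539). The remaining transmembrane genes Mmp16 and Mmp24, known from the nervous system, were too low for a test, with at most 16 and 17 counts in any tumour.

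The gelatinases, which cut denatured collagen and type IV collagen, did not pass. Mmp2, a product of fibroblasts, stood at 89.5, 336, 59.9 and 122 CPM in obese tumours 1 to 4 and 61.5, 58.2, 97.4 and 64.8 CPM in lean tumours 1 to 4. Obese tumour 2 was the highest of all 8, and obese tumours 1 and 3 lay within the lean range (log2 change 1.11 ± 0.51, edgeR adjusted p = 0.0937). Mmp2 was called without obese tumour 3 (edgeR adjusted p = 0.0258), over a range of 0.0258 to 0.290. Without obese tumour 3 its log2 change was 1.39, and without obese tumour 2 it was 0.37. The summed level of 9 fibroblast markers was 455 to 1729 CPM in obese and 833 to 1133 CPM in lean tumours, highest in obese tumour 2. Col1a1 alone made up 945 CPM of the sum in obese tumour 2. The markers split, with 2 called higher (Pdgfra and Pdgfrb) and 4 lower (Dcn, Lum, Fbln1 and Thy1). The part of the fibroblast markers in the Mmp2 values was not tested. Mmp9, a product of myeloid cells and of tumour cells, stood at 24.6, 2.95, 11 and 7.77 CPM in obese tumours against 11.5, 2.80, 3.01 and 1.47 CPM in lean tumours. Lean tumour 1 was above 3 of the 4 obese tumours (log2 change 1.30 ± 0.80, edgeR adjusted p = 0.183). Mmp9 was called without lean tumour 1 (edgeR adjusted p = 0.0369) and with limma-voom with quality weights (limma adjusted p = 0.0497), over a range of 0.0369 to 0.495. Mmp9 had a log2 change of 0.64 without obese tumour 1 and 2.28 without lean tumour 1.

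Collagenases, stromelysins and macrophage elastase form a cluster of 10 genes over 427 kb of chromosome 9. Of these 10, 8 were tested and 7 were higher in obese tumours. Without obese tumour 1, or without any one of lean tumours 2, 3 and 4, the count was 4 (Mmp13, Mmp12, Mmp8 and Mmp27). It was also 4 with limma-voom, 4 with the filter of 1 CPM in 4 tumours, which left 5 of the genes to test, and 6 to 8 over the other alternatives. In chromosomal order the cluster holds Mmp13, Mmp12, Mmp1b, Mmp3, Mmp1a, Mmp10, Mmp8, Mmp27, Mmp20 and Mmp7. Mmp3 did not pass, and Mmp20 and Mmp7 were too low for a test. The share of all tested genes called higher, 30.9%, is the background for the 7 of 8 tested. Mmp1a, Mmp1b, Mmp8, Mmp10 and Mmp27 had at most 10 counts in each of lean tumours 2 to 4. They passed the filter on counts mainly through obese tumours, so their calls could hardly have gone the other way.

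**Figure D2:**
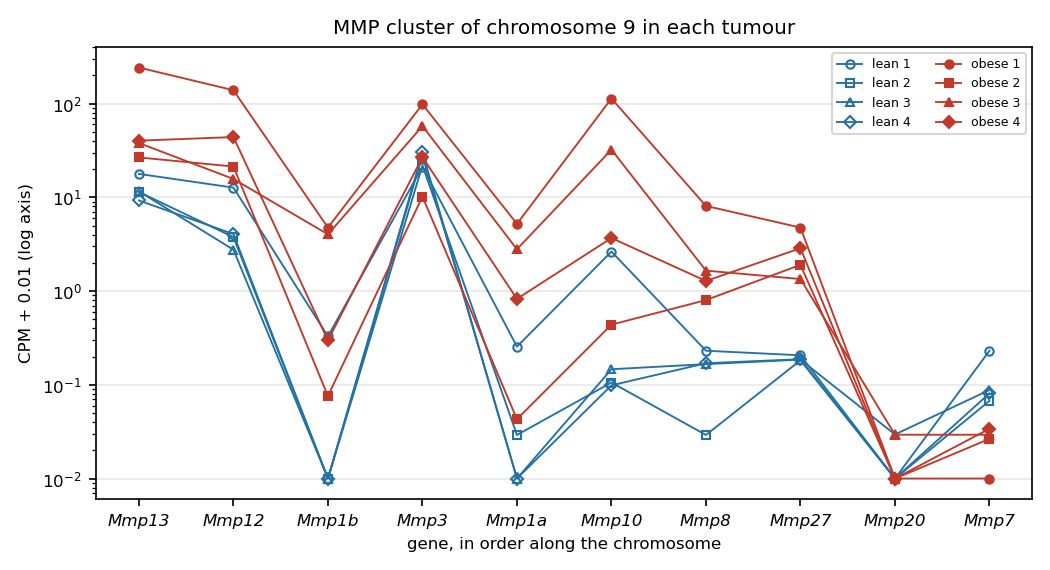
Level of each gene of the chromosome 9 cluster in each tumour, as CPM + 0.01 on a log axis, with genes in chromosomal order and 1 line per tumour (red, obese; blue, lean). Obese tumour 1 is the highest line from Mmp13 to Mmp27, and obese tumour 2 lies below the lean tumours at Mmp3.

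Promoters of the cluster are shown because its genes lie side by side and AP-1, the Fos and Jun factor family, is a known regulator of collagenase and stromelysin genes. RefSeq (GRCm38.p6) gave the bases before the start of 32 of the 46 members. The 250 bases before each start were searched for the AP-1 motif TGANTCA, whose reverse complement has the same form, so that 1 search covers both strands. It was found for 8 of 10 cluster genes, for 0 of the other 22 members and for 7.82% of 27025 genes with a listed start. The 120 bases before the start are printed 5′ to 3′ on the gene's strand, with the motif in capitals. Mmp12 and Mmp7 have a pair of listed starts each, of which 1 has the motif, the second for Mmp12 and the first for Mmp7. These are the starts shown, and a gene was counted when any of its starts had the motif.
Mmp13 (chr9:7272394-7272513, plus strand): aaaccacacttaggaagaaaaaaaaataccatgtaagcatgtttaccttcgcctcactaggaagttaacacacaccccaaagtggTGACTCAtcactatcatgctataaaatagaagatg
Mmp12 (chr9:7347254-7347373, plus strand): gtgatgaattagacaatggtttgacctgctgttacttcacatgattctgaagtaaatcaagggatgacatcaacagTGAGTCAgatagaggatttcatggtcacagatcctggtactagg
Mmp1b (chr9:7388027-7388146, minus strand): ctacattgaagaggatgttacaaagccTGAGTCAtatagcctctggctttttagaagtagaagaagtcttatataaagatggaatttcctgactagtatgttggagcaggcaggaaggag
Mmp3 (chr9:7445702-7445821, plus strand): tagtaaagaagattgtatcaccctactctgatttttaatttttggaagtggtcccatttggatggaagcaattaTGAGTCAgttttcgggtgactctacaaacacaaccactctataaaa
Mmp1a (chr9:7464021-7464140, plus strand): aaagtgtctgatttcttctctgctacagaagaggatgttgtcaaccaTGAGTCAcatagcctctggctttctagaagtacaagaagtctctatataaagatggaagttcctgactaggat
Mmp10 (chr9:7502222-7502341, plus strand): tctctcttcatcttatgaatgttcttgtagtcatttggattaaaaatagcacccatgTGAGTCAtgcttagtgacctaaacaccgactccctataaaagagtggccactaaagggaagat
Mmp20 (chr9:7628111-7628230, plus strand): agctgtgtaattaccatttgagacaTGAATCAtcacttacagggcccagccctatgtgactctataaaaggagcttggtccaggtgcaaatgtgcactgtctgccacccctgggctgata
Mmp7 (chr9:7691970-7692089, plus strand): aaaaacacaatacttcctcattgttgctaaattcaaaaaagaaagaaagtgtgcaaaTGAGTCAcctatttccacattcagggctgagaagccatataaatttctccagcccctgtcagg
Mmp8 (chr9:7558309-7558428, plus strand): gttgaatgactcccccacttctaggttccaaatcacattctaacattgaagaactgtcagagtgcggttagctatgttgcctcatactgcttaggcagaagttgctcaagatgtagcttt
Mmp27 (chr9:7571276-7571395, plus strand): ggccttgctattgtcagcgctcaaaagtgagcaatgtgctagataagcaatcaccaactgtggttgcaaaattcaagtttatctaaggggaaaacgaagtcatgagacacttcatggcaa
The first base of the motif lay 35 bases before the start for Mmp13, 44 for Mmp12, 46 for Mmp3, 63 for Mmp10 and for Mmp7, 73 for Mmp1a, 93 for Mmp1b and 95 for Mmp20. Mmp8 and Mmp27, which were called higher, do not have these letters in the window, and Mmp7 and Mmp20, which were near 0, do. The motif AGGAAG, searched on both strands for the PEA3 group of Ets factors, was found for 6 of 10 cluster genes and for 32.3% of all listed genes. A match is a description of the sequence and no evidence that a factor was bound.

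Among the collagenases, Mmp13, which cuts fibrillar collagen, stood at 243, 26.7, 38.0 and 40.2 CPM in obese tumours 1 to 4 and 17.8, 11.4, 11.6 and 9.25 CPM in lean tumours 1 to 4. Every obese tumour was above every lean tumour, and obese tumour 1 was far above the rest (log2 change 2.80 ± 0.75, edgeR adjusted p = 0.0150). Mmp13 had a log2 change of 2.10 with limma-voom, 2.02 with limma-voom with quality weights and 1.5 without obese tumour 1. The call held without obese tumour 1 (edgeR adjusted p = 0.00521, range 0.00256 to 0.0458 over the alternatives that gave a value). The DESeq2 Wald test gave no adjusted p for Mmp13. Mmp8, the collagenase of neutrophils, stood at 8.09, 0.791, 1.64 and 1.27 CPM in obese tumours against 0.221, 0.0192, 0.156 and 0.160 CPM in lean tumours. It too did not overlap between groups and was highest in obese tumour 1 (log2 change 4.38 ± 0.98, edgeR adjusted p = 0.00701). Mmp8 had a log2 change of 3.20 with limma-voom with quality weights and 3.15 without obese tumour 1. The summed level of 10 neutrophil markers was 476 CPM in obese tumour 1, 20.9 to 73.2 CPM in the other obese tumours and 103 to 123 CPM in lean tumours. Of these markers Ly6g had 0 counts in every library, 5 were tested, 0 were higher and 1 (Ltf) was lower. Ltf was the largest part of each lean sum, at 62.5, 84.4, 78.8 and 59.4 CPM in lean tumours 1 to 4. In obese tumours it ranged over 0.527 to 12.8 CPM, so the lean sums depend strongly on this 1 gene. The sum in obese tumour 1 came mostly from S100a9 (254 CPM) and S100a8 (150 CPM). Csf3r (65.8 CPM) and Retnlg (4.25 CPM) were also highest in that tumour. There Ly6g, Elane and Camp had 0 counts, Mpo had 1 and Ngp had 4. The part of the neutrophil markers in the Mmp8 values was not tested.

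Mmp1a and Mmp1b are the mouse counterparts of human interstitial collagenase. Mmp1a had 126, 2, 144 and 34 counts in obese tumours 1 to 4 and 10, 1, 0 and 0 in lean tumours 1 to 4, and Mmp1b had 115, 4, 208 and 12 and 13, 0, 0 and 0. Obese tumours 1 and 3 carried most of these reads, and obese tumour 2 was lower than lean tumour 1 in both genes. Mmp1a passed (log2 change 5.11 ± 1.68, edgeR adjusted p = 0.0307) and so did Mmp1b (log2 change 4.90 ± 1.84, edgeR adjusted p = 0.0489). The Mmp1a call ended without obese tumour 1, lean tumour 2, lean tumour 3 and lean tumour 4 (edgeR adjusted p = 0.0641, 0.0716, 0.0718 and 0.0700) and with limma-voom (limma adjusted p = 0.0711), over a range of 0.00337 to 0.0718. The Mmp1b call ended without obese tumour 1, obese tumour 3, obese tumour 4, lean tumour 2, lean tumour 3 and lean tumour 4 (edgeR adjusted p = 0.0914, 0.0618, 0.0533, 0.0953, 0.106 and 0.104), with upper quartile factors, library size only, no filter and offsets for GC content and exon length (edgeR adjusted p = 0.0560, 0.0538, 0.0614 and 0.0502) and with limma-voom (limma adjusted p = 0.0506), over a range of 0.00655 to 0.106. Mmp1a had a log2 change of 4.28 without obese tumour 1 and 7.98 without lean tumour 1. Mmp1b had a log2 change of 4.28 without obese tumour 1 and 9.80 without lean tumour 1. Of the stretches of 50 bases in their transcripts, 8.15% of those of Mmp1a occur in Mmp1b, and Mmp1b overlaps the more abundant Mmp12 on the opposite strand, so both values are uncertain.

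The stromelysins cut proteoglycans, laminin and fibronectin and activate procollagenases. Mmp10 stood at 113, 0.429, 32.3 and 3.67 CPM in obese tumours 1 to 4 and 2.63, 0.0958, 0.137 and 0.0888 CPM in lean tumours 1 to 4. It ranged from 0.429 to 113 CPM within the obese group, and lean tumour 1 was above obese tumour 2 (log2 change 5.69 ± 1.97, edgeR adjusted p = 0.0369). The Mmp10 call ended without obese tumour 1, lean tumour 2, lean tumour 3 and lean tumour 4 (edgeR adjusted p = 0.0889, 0.0793, 0.0846 and 0.0824) and with limma-voom (limma adjusted p = 0.151), over a range of 0.00111 to 0.151. Mmp10 had a log2 change of 4.72 with limma-voom, 4.56 with limma-voom with quality weights, 4.07 without obese tumour 1 and 8.47 without lean tumour 1. Mmp3 stood at 98.4, 10.2, 57.6 and 26.9 CPM in obese tumours against 21.2, 21.9, 28.3 and 30.1 CPM in lean tumours. Obese tumour 2 was the lowest and obese tumour 1 the highest of all 8 (log2 change 0.93 ± 0.59, edgeR adjusted p = 0.202). Mmp3 was called without obese tumour 2 (edgeR adjusted p = 0.0343), over a range of 0.0343 to 0.958. Mmp3 had a log2 change of 0.33 with limma-voom, 0.02 with limma-voom with quality weights and 0.33 without obese tumour 1. Of the 50-base stretches of Mmp3 transcripts 7.99% also occur in Mmp10.

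Mmp12, macrophage elastase, stood at 139, 21.3, 15.7 and 44.0 CPM in obese tumours 1 to 4 and 12.7, 3.76, 2.75 and 4.05 CPM in lean tumours 1 to 4. All obese tumours lay above all lean tumours (log2 change 3.24 ± 0.85, edgeR adjusted p = 0.0131). Mmp12 had a log2 change of 2.23 without obese tumour 1 and 4.01 without lean tumour 1. The 10 macrophage markers summed to 1988 to 2469 CPM in obese and 1273 to 3416 CPM in lean tumours, ranges that overlap. Lyz2, C1qa, C1qb and C1qc, which were not called, made up most of each sum. Of the 10 markers, 5 were called higher (Adgre1, Cd68, Mrc1, Itgam and Fcgr1), beside 30.9% of all tested genes, and 1 lower (Csf1r). These 5 were each higher in every obese tumour than in any lean tumour, beside 28.9% of all tested genes. The part of the macrophage markers in the Mmp12 values was not tested. Mmp27, a little-studied relative in the same cluster, stood at 4.75, 1.90, 1.33 and 2.86 CPM in obese tumours against 0.196, 0.172, 0.176 and 0.178 CPM in lean tumours. Its lean values were nearly equal and lay far below the obese range (log2 change 3.88 ± 0.48, edgeR adjusted p = 0.000627). Mmp7, matrilysin, and Mmp20, an enzyme of tooth enamel, had at most 9 and 1 counts in any tumour.

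Outside the cluster, the secreted MMPs Mmp11 and Mmp19 were higher. Mmp11, known from stroma next to breast carcinoma and activated inside the cell by furin, stood at 22.2, 60.4, 22.8 and 25.3 CPM in obese tumours 1 to 4 and 5.23, 4.29, 6.83 and 5.74 CPM in lean tumours 1 to 4. No lean tumour reached the obese range, and obese tumour 2 was the highest (log2 change 2.56 ± 0.38, edgeR adjusted p = 0.00131). Mmp19 stood at 39.8, 18.1, 10.9 and 16.3 CPM in obese tumours against 14.1, 5.19, 4.92 and 4.37 CPM in lean tumours. Lean tumour 1 was above obese tumour 3 (log2 change 1.58 ± 0.53, edgeR adjusted p = 0.0325). The Mmp19 call ended without obese tumour 1, obese tumour 2, lean tumour 2, lean tumour 3 and lean tumour 4 (edgeR adjusted p = 0.0843, 0.0510, 0.0718, 0.0845 and 0.0820) and with upper quartile factors (edgeR adjusted p = 0.0538), over a range of 0.00121 to 0.0845. Mmp19 had a log2 change of 2.17 without lean tumour 1. Mmp28, epilysin of skin, ranged over 1.37 to 4.17 CPM in obese and 0.906 to 1.52 CPM in lean tumours (log2 change 1.05 ± 0.43, edgeR adjusted p = 0.0650). It was called without obese tumour 1 and obese tumour 3 (edgeR adjusted p = 0.0470 and 0.0254), with offsets for GC content and exon length (edgeR adjusted p = 0.0388) and with limma-voom with quality weights (limma adjusted p = 0.00330), over a range of 0.00330 to 0.169. Mmp21, a gene of left-right patterning in the embryo, had 0 counts in all libraries.

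**Figure D3:**
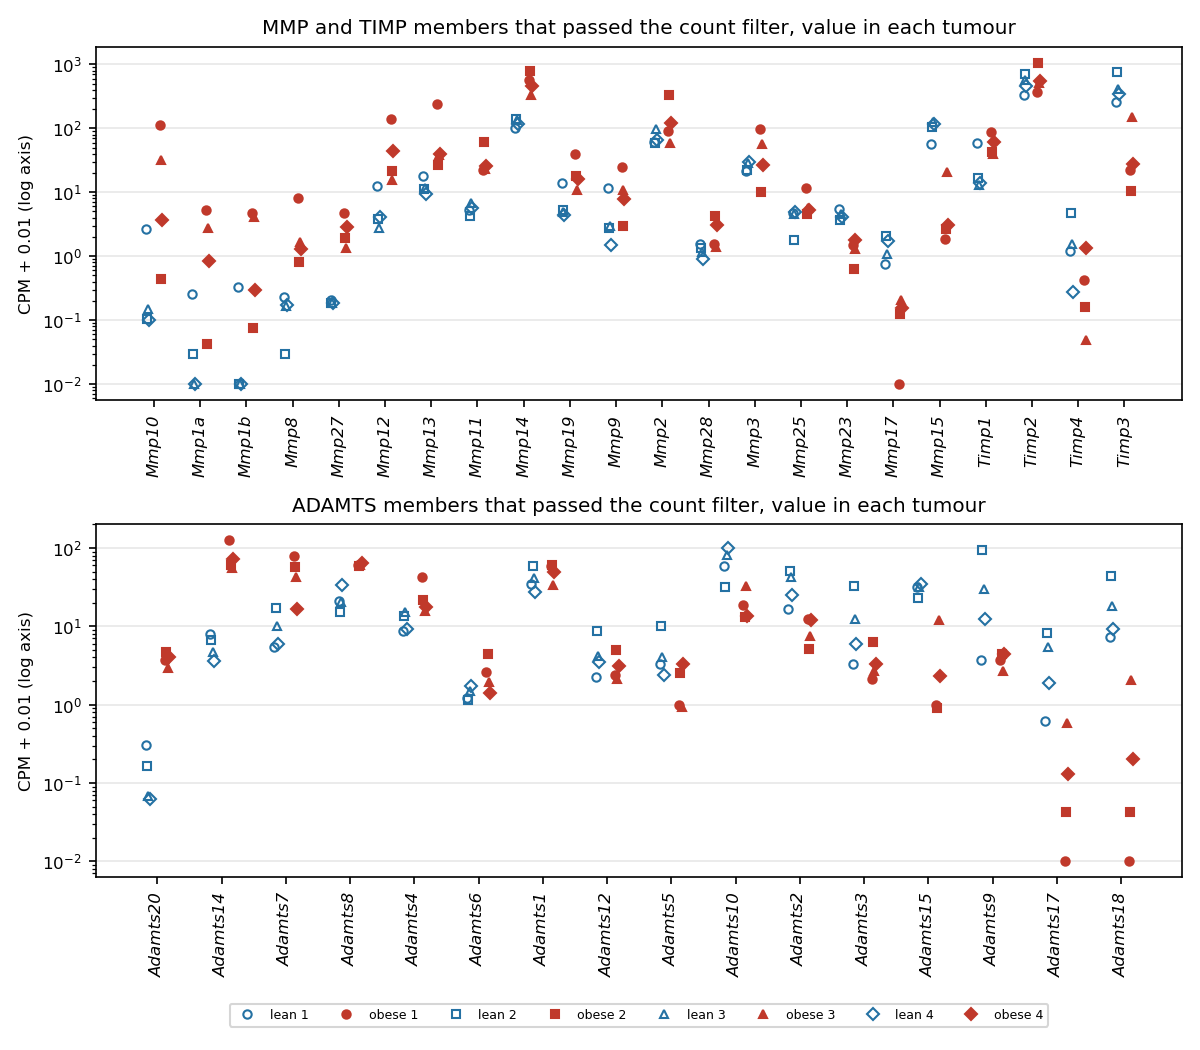
Level of each tested member in each tumour, as CPM + 0.01 on a log axis, with MMP and TIMP genes above and ADAMTS genes below, each family ordered by log2 change. Open blue symbols are lean tumours 1 to 4 and filled red symbols obese tumours 1 to 4. The groups do not overlap for Mmp14, while obese values of Mmp10 run from 0.429 to 113 CPM.

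The ADAMTS genes that process procollagen split. Adamts2, Adamts3 and Adamts14 remove the amino-terminal propeptide of fibrillar procollagens, and Adamts3 is also known for processing a lymphatic growth factor. Adamts14 (ENSMUSG00000059901, chromosome 10, 61197112 to 61273438) stood at 125, 61.4, 55.0 and 72.7 CPM in obese tumours 1 to 4 and 8.03, 6.63, 4.66 and 3.55 CPM in lean tumours 1 to 4. The lowest obese value was several times the highest lean value (log2 change 3.78 ± 0.37, edgeR adjusted p = 0.000298). Adamts2 stood at 12.4, 5.09, 7.48 and 12.0 CPM in obese tumours against 16.5, 51.0, 42.0 and 25.2 CPM in lean tumours, with all obese tumours below all lean tumours (log2 change −1.86 ± 0.43, edgeR adjusted p = 0.00756). Adamts3 stood at 2.11, 6.36, 2.65 and 3.31 CPM in obese tumours against 3.29, 33.0, 12.5 and 5.97 CPM in lean tumours. The groups overlapped and lean tumour 2 was the highest (log2 change −1.92 ± 0.73, edgeR adjusted p = 0.0498). The Adamts3 call ended without obese tumour 1, obese tumour 3, obese tumour 4, lean tumour 2 and lean tumour 3 (edgeR adjusted p = 0.112, 0.0879, 0.107, 0.154 and 0.0808), with no filter (edgeR adjusted p = 0.0593) and with limma-voom and limma-voom with quality weights (limma adjusted p = 0.122 and 0.0664), over a range of 0.00887 to 0.154. Adamts3 had a log2 change of −1.0 without lean tumour 2. Per kb of exon, Adamts2 held 1.78, 0.990, 1.68 and 2.64% of the summed ADAMTS level in obese and 5.95, 10.4, 10.4 and 7.12% in lean tumours.

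The proteoglycan-cutting ADAMTS genes also split. Adamts8 stood at 60.7, 59.3, 59.8 and 63.5 CPM in obese tumours 1 to 4 and 21.2, 15.3, 20.5 and 33.3 CPM in lean tumours 1 to 4. The obese values were nearly equal and all above the lean range (log2 change 1.43 ± 0.23, edgeR adjusted p = 0.00173). Adamts4, an aggrecanase, stood at 42.3, 21.7, 15.8 and 17.6 CPM in obese tumours against 8.79, 13.6, 15.3 and 9.18 CPM in lean tumours, with no overlap but a small gap (log2 change 1.06 ± 0.36, edgeR adjusted p = 0.0338). The Adamts4 call ended without obese tumour 1, obese tumour 2, lean tumour 1 and lean tumour 4 (edgeR adjusted p = 0.0665, 0.0515, 0.0895 and 0.0930) and with upper quartile factors, library size only and a filter of 1 CPM in 4 tumours (edgeR adjusted p = 0.0694, 0.0694 and 0.0512), over a range of 0.0162 to 0.0930, and the log2 change was 0.66 without obese tumour 1 and 0.68 with limma-voom with quality weights. Another gene lies on the opposite strand of Adamts4, and without a stated strand setting its counts are uncertain. Adamts20, known for versican cleavage in skin pigmentation, stood at 3.72, 4.65, 2.96 and 4.10 CPM in obese tumours against 0.295, 0.153, 0.0586 and 0.0533 CPM in lean tumours. Every lean tumour was below every obese tumour (log2 change 4.79 ± 0.61, edgeR adjusted p = 0.000705). Adamts20 had 12, 8, 3 and 3 counts in lean tumours 1 to 4. It passed the filter on counts mainly through obese tumours, so its call could hardly have gone the other way. Adamts20 had a log2 change of 5.60 with limma-voom with quality weights and 5.41 without lean tumour 1.

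Adamts9, which cuts versican, and Adamts15, which cuts versican and aggrecan, were lower. Adamts9 stood at 3.72, 4.42, 2.71 and 4.44 CPM in obese tumours 1 to 4 and 3.68, 93.4, 29.7 and 12.3 CPM in lean tumours 1 to 4. Lean tumour 2 was far above the rest, and lean tumour 1 lay within the obese range (log2 change −3.18 ± 0.89, edgeR adjusted p = 0.0172). The Adamts9 call ended with limma-voom and limma-voom with quality weights (limma adjusted p = 0.0954 and 0.0675), over a range of 9.15e-05 to 0.0954. Adamts9 had a log2 change of −2.41 with limma-voom, −2.16 with limma-voom with quality weights and −2.0 without lean tumour 2. Adamts15 stood at 0.991, 0.907, 12.1 and 2.33 CPM in obese tumours against 31.9, 23.3, 32.2 and 34.5 CPM in lean tumours. No obese tumour reached the lean range, and obese tumour 3 was the highest of its group (log2 change −2.89 ± 0.86, edgeR adjusted p = 0.0209). The Adamts15 call ended without obese tumour 4 (edgeR adjusted p = 0.0576), over a range of 1.73e-05 to 0.0576. Adamts15 had a log2 change of −3.67 with limma-voom, −3.96 with limma-voom with quality weights and −4.42 without obese tumour 3. Adamts15 and Adamts8 are neighbours on chromosome 9, 20.1 kb apart, and were called in opposite directions. Adamts1 and Adamts5, 53.1 kb apart on chromosome 16, did not pass. Adamts1, a versicanase also known from ovulation, stood at 58.1, 60.1, 34.1 and 49.9 CPM in obese tumours against 35.0, 59.6, 41.3 and 27.4 CPM in lean tumours (log2 change 0.31 ± 0.27, edgeR adjusted p = 0.344). It was called with limma-voom with quality weights (limma adjusted p = 0.0498), over a range of 0.0498 to 0.765. Adamts5, the main aggrecanase of mouse cartilage, ranged over 0.909 to 3.34 CPM in obese and 2.34 to 10.0 CPM in lean tumours (log2 change −1.34 ± 0.62, edgeR adjusted p = 0.0905). It was called with offsets for GC content and exon length (edgeR adjusted p = 0.0266) and with the DESeq2 Wald test (DESeq2 adjusted p = 0.0476), over a range of 0.0266 to 0.331. Adamts5 had a log2 change of −0.47 with limma-voom with quality weights and −0.72 without lean tumour 2.

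Adamts7, which cuts cartilage oligomeric matrix protein, was higher. It stood at 79.0, 56.9, 42.5 and 16.6 CPM in obese tumours 1 to 4 and 5.45, 16.9, 9.95 and 5.91 CPM in lean tumours 1 to 4. Obese tumour 4 was just below lean tumour 2, and the other obese tumours were above all lean tumours (log2 change 2.35 ± 0.54, edgeR adjusted p = 0.00801). Adamts7 had a log2 change of 1.66 with limma-voom with quality weights. Its relative Adamts12 ranged over 2.09 to 4.93 CPM in obese and 2.23 to 8.78 CPM in lean tumours (log2 change −0.57 ± 0.48, edgeR adjusted p = 0.326). Adamts10 and Adamts17, known from fibrillin microfibrils and inherited short stature syndromes, were lower. Adamts10 stood at 18.5, 13.3, 32.8 and 13.6 CPM in obese tumours against 58.4, 31.9, 81.7 and 100.4 CPM in lean tumours. Obese tumour 3 was just above lean tumour 2 (log2 change −1.80 ± 0.42, edgeR adjusted p = 0.00841). Adamts10 had a log2 change of −2.41 with limma-voom with quality weights. Adamts17 had 0, 2, 30 and 5 counts in obese tumours 1 to 4 and 25, 430, 275 and 105 in lean tumours 1 to 4 (log2 change −4.38 ± 1.26, edgeR adjusted p = 0.0183). Adamts17 passed the filter on counts mainly through lean tumours, so its call could hardly have gone the other way. Its call ended without obese tumour 4 (edgeR adjusted p = 0.0522), over a range of 0.000236 to 0.0522. Adamts17 had a log2 change of −4.99 with limma-voom with quality weights, −6.12 without obese tumour 3 and −3.75 without lean tumour 2. Adamts6, related to Adamts10, ranged over 1.42 to 4.43 CPM in obese and 1.15 to 1.74 CPM in lean tumours (log2 change 0.89 ± 0.41, edgeR adjusted p = 0.0891).

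Adamts18 had the most negative log2 change of the 38 tested members. It stood at 0, 0.0330, 2.07 and 0.192 CPM in obese tumours 1 to 4 and 7.32, 44.5, 18.2 and 9.27 CPM in lean tumours 1 to 4, with all obese tumours below the lean range and lean tumour 2 the highest (log2 change −5.07 ± 1.49, edgeR adjusted p = 0.0206). Adamts18 had a log2 change of −6.69 with limma-voom, −6.59 with limma-voom with quality weights, −7.90 without obese tumour 3 and −4.30 without lean tumour 2. The call ended without obese tumour 4 (edgeR adjusted p = 0.0539), over a range of 4.86e-05 to 0.0539. In obese tumours 1 to 4 Adamts18 had 0, 2, 107 and 8 counts. It passed the filter on counts mainly through lean tumours, so its call could hardly have gone the other way. Adamts18 is known from mammary epithelium, where it is made by myoepithelial cells. The 7 basal and myoepithelial markers summed to 52.9 to 92.5 CPM in obese and 284 to 3691 CPM in lean tumours, highest in lean tumour 2 like Adamts18. Among obese tumours the order differed. Their sum was 68.6 CPM in obese tumour 3, the highest of its group in Adamts18, and 90.2 CPM in obese tumour 1, with 0 Adamts18 counts. The part of these markers in the Adamts18 values was not tested. Adamts13, the enzyme that cuts von Willebrand factor, Adamts16 and Adamts19 were too low for a test, with at most 2, 9 and 2 counts in any tumour.

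Of the inhibitors, Timp3 was lower, while Timp1, Timp2 and Timp4 were not called. Timp3, which binds to the matrix and inhibits ADAM and ADAMTS enzymes as well as MMPs (ENSMUSG00000020044, chromosome 10, 86300372 to 86349506), stood at 22.0, 10.4, 149.8 and 28.1 CPM in obese tumours 1 to 4 and 263, 765, 407 and 348 CPM in lean tumours 1 to 4. Every obese tumour was below every lean tumour, and obese tumour 3, the highest of its group in mammary epithelial markers, was closest to the lean range (log2 change −3.08 ± 0.86, edgeR adjusted p = 0.0171). Among lean tumours the order differed. Lean tumour 2 had the lowest marker sum (1161 CPM) and the highest Timp3, and lean tumour 1 the highest sum (2497 CPM) and the lowest Timp3. The part of these markers in the Timp3 values was not tested. Timp3 had a log2 change of −3.69 with limma-voom, −3.82 with limma-voom with quality weights and −4.46 without obese tumour 3. Timp2, which inhibits MMPs and takes part in the activation of proMmp2 by Mmp14, stood at 367, 1051, 506 and 558 CPM in obese tumours against 338, 714, 578 and 453 CPM in lean tumours. The groups overlapped (log2 change 0.25 ± 0.35, edgeR adjusted p = 0.549). Without obese tumour 2 its log2 change was −0.12. Timp1, a secreted inhibitor induced by cytokines, stood at 87.9, 42.4, 39.6 and 61.1 CPM in obese tumours against 58.7, 16.8, 13.1 and 14.1 CPM in lean tumours. Lean tumour 1 was above 2 of the obese tumours, and the other lean tumours were below all obese tumours (log2 change 1.17 ± 0.54, edgeR adjusted p = 0.0928). Timp1 was called without lean tumour 1 (edgeR adjusted p = 0.00473), with offsets for GC content and exon length (edgeR adjusted p = 0.0301) and with limma-voom and limma-voom with quality weights (limma adjusted p = 0.0215 and 0.00129), over a range of 0.00129 to 0.203. Timp1 had a log2 change of 1.86 with limma-voom with quality weights and 2.0 without lean tumour 1. Timp4, an inhibitor known from heart and fat, ranged over 0.0387 to 1.32 CPM in obese and 0.266 to 4.68 CPM in lean tumours (log2 change −2.01 ± 1.12, edgeR adjusted p = 0.148). Timp4 had a log2 change of −0.60 with limma-voom with quality weights, −3.34 without obese tumour 4 and −1.07 without lean tumour 2. The 7 adipocyte markers summed to 34.5 to 449.5 CPM in obese and 116 to 427 CPM in lean tumours, and their part in the Timp4 values was not tested.

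The makeup of each family was compared per kb of exon, since only such levels compare between genes. The summed MMP level was 396, 280.3, 165 and 173 CPM per kb in obese tumours 1 to 4 and 81.5, 83.0, 104 and 88.9 in lean tumours 1 to 4. Mmp14 held 24.6, 46.4, 33.2 and 44.6% of it in obese tumours 1 to 4 and 21.2, 27.8, 22.2 and 22.2% in lean tumours 1 to 4. Mmp15 held 0.0870, 0.178, 2.30 and 0.327% in obese and 13.0, 23.0, 22.3 and 24.7% in lean tumours. Mmp2 held 6.71, 35.6, 10.8 and 20.9% in obese and 22.4, 20.8, 27.8 and 21.6% in lean tumours. The makeup of the obese tumours differed from tumour to tumour. Mmp13 held 23.0, 3.56, 8.59 and 8.72%, Mmp3 13.8, 2.02, 19.4 and 8.64% and Mmp10 16.7, 0.0888, 11.3 and 1.24% there, and in obese tumour 1 all these genes were above Mmp2. The TIMP level summed to 196, 319, 193 and 216 CPM per kb in obese and 185, 297, 213 and 175 in lean tumours, ranges that overlap. Timp3 held 1.38, 0.399, 9.53 and 1.60% of it in obese and 17.4, 31.6, 23.4 and 24.4% in lean tumours. Timp1 held 50.5, 15.0, 23.1 and 31.9% in obese and 35.7, 6.36, 6.92 and 9.11% in lean tumours, with lean tumour 1 above the other lean tumours. The summed MMP level divided by the summed TIMP level was 2.02, 0.879, 0.857 and 0.801 in obese and 0.439, 0.280, 0.487 and 0.508 in lean tumours, and the lowest obese value was above the highest lean value. The Mmp14 level divided by the Timp2 level was 1.03, 0.482, 0.422 and 0.537 and 0.199, 0.126, 0.156 and 0.170, also without overlap. These sums are descriptions, with no test. Among ADAMTS genes, Adamts10 held 3.0, 2.91, 8.31 and 3.37% of the summed level in obese and 23.8, 7.36, 23.0 and 32.0% in lean tumours, low in lean tumour 2. Adamts14 held 32.2, 21.5, 22.1 and 28.7% in obese and 5.20, 2.43, 2.08 and 1.80% in lean tumours.

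**Figure D4:**
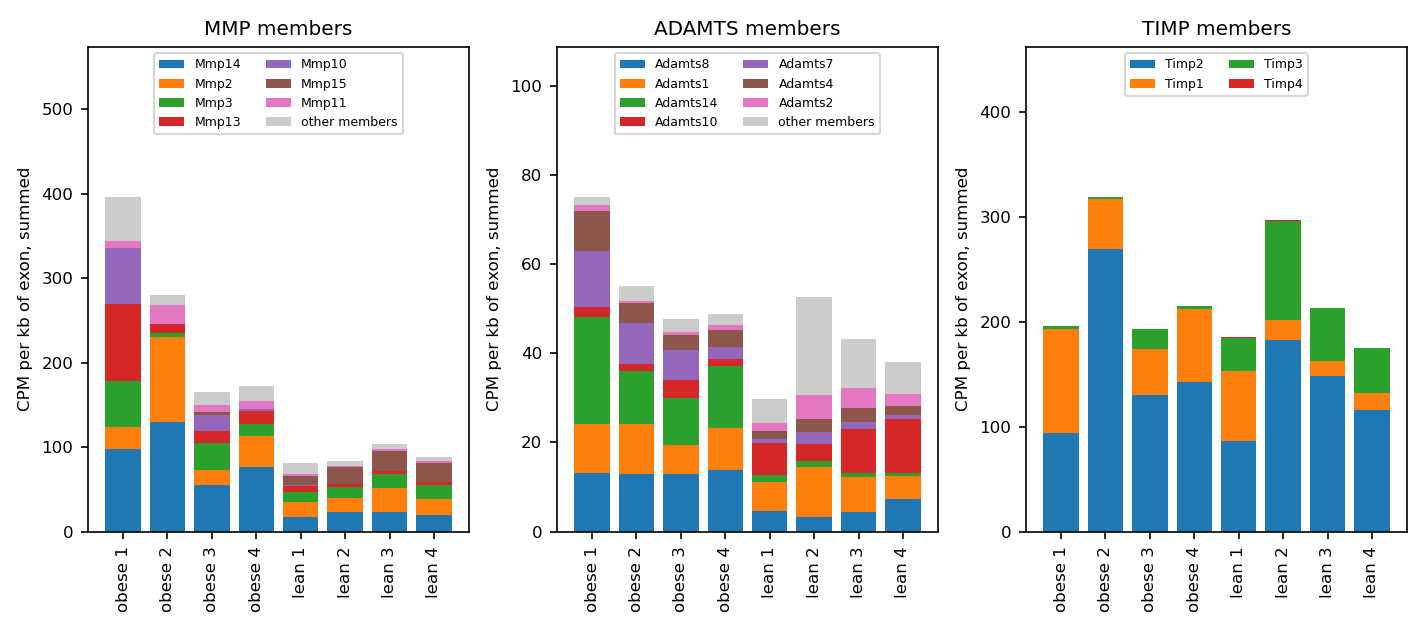
Summed level of each family in each tumour, in CPM per kb of exon, with the leading members stacked and the others in grey. The MMP sums of the 4 obese tumours (165 to 396) all exceed those of the lean tumours (81.5 to 104), the TIMP sums overlap, and the Timp3 part is small in obese tumours.

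Genes that act with these proteases were read from the same fit, by lists with a median log2 change beside −0.04 for all tested genes. The counts of each list stand beside 30.9% called higher and 28.4% called lower among all tested genes. Activators and cell surface partners had 5 higher and 4 lower of 12 listed and 11 tested (median 0.28). The urokinase receptor gene Plaur stood at 363, 153, 138 and 149 CPM in obese tumours against 37.5, 7.89, 13.5 and 14.8 CPM in lean tumours (log2 change 3.45 ± 0.57, edgeR adjusted p = 0.00224), and Cd44, a hyaluronan receptor that anchors proteases, at 595 ± 151 CPM against 154 ± 53.1 CPM (mean ± SD, n = 4, log2 change 1.95 ± 0.29, edgeR adjusted p = 0.00132). The proprotein convertase gene Pcsk6 (log2 change −3.76 ± 0.59, edgeR adjusted p = 0.00163) fell and the urokinase gene Plau rose (log2 change 1.51 ± 0.25, edgeR adjusted p = 0.00220), while Furin, which activates membrane-type MMPs and Mmp11, did not pass (log2 change −0.14 ± 0.27, edgeR adjusted p = 0.665). The list of other inhibitors and related genes, not all of which inhibit MMPs, had 1 higher and 5 lower of 12 listed and 10 tested (median −0.96). Cst3, cystatin C, an inhibitor of cysteine proteases (log2 change −1.19 ± 0.22, edgeR adjusted p = 0.00321), Spock2, a testican (log2 change −3.21 ± 0.70, edgeR adjusted p = 0.00607), and Serpine2, an inhibitor of serine proteases (log2 change −3.73 ± 0.98, edgeR adjusted p = 0.0132), fell. Reck, a membrane-anchored MMP inhibitor, stood at 1.86, 0.626, 11.3 and 1.49 CPM in obese tumours against 16.6, 43.7, 30.0 and 25.0 CPM in lean tumours and fell with no overlap (log2 change −2.92 ± 0.89, edgeR adjusted p = 0.0232).

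The related ADAM proteases, which shed cell surface proteins, had 4 higher and 6 lower of 33 listed and 14 tested (median −0.40). Adam8 stood at 473, 119, 187 and 149.6 CPM in obese tumours against 44.1, 5.71, 9.62 and 14.1 CPM in lean tumours (log2 change 3.66 ± 0.77, edgeR adjusted p = 0.00571) and Adam9 at 281 ± 30.1 CPM against 144 ± 12.2 CPM (log2 change 0.96 ± 0.12, edgeR adjusted p = 0.000624). Adam17, the sheddase of tumour necrosis factor, rose (log2 change 0.90 ± 0.16, edgeR adjusted p = 0.00271). Adam11, a family member without protease activity, fell (log2 change −2.44 ± 0.47, edgeR adjusted p = 0.00371). The other lower genes were Adam12, Adam19, Adam1a, Adam22 and Adam23, with log2 changes from −1.59 to −0.89. The ADAMTS-like genes, which lack the protease domain, had 2 higher and 3 lower of 6 listed and 6 tested (median −1.48). Adamtsl5 (log2 change 4.32 ± 0.52, edgeR adjusted p = 0.000601) and Adamtsl3 (log2 change 3.19 ± 0.48, edgeR adjusted p = 0.00141) rose, and Adamtsl1 (log2 change −4.49 ± 0.96, edgeR adjusted p = 0.00581) and Papln, the papilin gene, fell (log2 change −3.50 ± 1.0, edgeR adjusted p = 0.0186).

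Substrate genes were called in both directions. Collagenase and gelatinase substrates had 2 higher and 3 lower of 13 listed and 13 tested (median −0.65). Col5a1 (log2 change 2.16 ± 0.41, edgeR adjusted p = 0.00359) and Col3a1 (log2 change 1.73 ± 0.44, edgeR adjusted p = 0.0116), chains of fibrillar collagens, rose. The elastin gene Eln (log2 change −3.88 ± 0.94, edgeR adjusted p = 0.00974) and the laminin chain gene Lama3 (log2 change −5.56 ± 1.34, edgeR adjusted p = 0.00973) fell. Proteoglycans and other ADAMTS substrates had 1 higher and 10 lower of 15 listed and 13 tested (median −2.16). Vcan, versican, was the 1 that rose and stood at 122, 104, 38.9 and 74.7 CPM in obese tumours against 8.15, 9.91, 4.76 and 3.34 CPM in lean tumours (log2 change 3.70 ± 0.48, edgeR adjusted p = 0.000788). Bgn, biglycan (log2 change −2.35 ± 0.43, edgeR adjusted p = 0.00327), Comp, cartilage oligomeric matrix protein (log2 change −2.16 ± 0.46, edgeR adjusted p = 0.00559), and Fbln1, fibulin (log2 change −2.84 ± 0.62, edgeR adjusted p = 0.00631), fell. Procollagen-processing enzymes outside the ADAMTS family and enhancers of such cleavage had 3 higher and 0 lower of 7 listed and 4 tested (median 0.86). The enhancer genes Pcolce2 (log2 change 2.37 ± 0.57, edgeR adjusted p = 0.00909) and Pcolce (log2 change 1.04 ± 0.31, edgeR adjusted p = 0.020) rose. The enzyme gene Bmp1 also rose (log2 change 0.68 ± 0.18, edgeR adjusted p = 0.0135). Transcription factors of the AP-1, Ets and Runx families had 6 higher and 3 lower of 14 listed and 14 tested (median 0.45). Fosl1, an AP-1 subunit, stood at 215, 259, 127 and 284 CPM in obese tumours against 17.2, 0.287, 0.644 and 0.391 CPM in lean tumours, with lean tumour 1 above the other lean tumours (log2 change 5.58 ± 1.49, edgeR adjusted p = 0.0142). Ets1 (log2 change 2.14 ± 0.26, edgeR adjusted p = 0.000619), Fosl2 (log2 change 1.30 ± 0.23, edgeR adjusted p = 0.00292) and Runx2 (log2 change 1.72 ± 0.43, edgeR adjusted p = 0.0107) rose and Etv5 fell (log2 change −2.15 ± 0.45, edgeR adjusted p = 0.00527), while Fos (log2 change 0.01 ± 0.25, edgeR adjusted p = 0.977) and Jun (log2 change 0.26 ± 0.28, edgeR adjusted p = 0.445) were not called. Their part in the MMP values was not tested.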

How the data were processed

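Total RNA was column-extracted from 8 frozen tumours and made into stranded libraries, per the labels' protocols. The deposited table gives unnormalized read counts for each Ensembl gene and tumour. The submitters' processing notes list STAR 2.5.2b, HTSeq, cutadapt 1.12, CASAVA 1.8, bcl2fastq 2.18.0.12 and the build mm10. The annotation, strand setting and read filters are not given in the sources used here. Overlapping genes on opposite strands may therefore share reads, which touches Adamts4, Adamts7 (Tbc1d2b), Mmp11 (Chchd10), Mmp19 (Tmem198b), Mmp12 (Mmp1b) and Timp1, Timp3 and Timp4, which overlap synapsin genes.

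Symbols, coordinates (GRCm38, counted from 1) and merged exon lengths came from GENCODE M21, which names 49326 of the 50143 IDs. Genes were kept by edgeR's filterByExpr (minimum count 10, minimum total 15), scaled by TMM and tested with edgeR's robust quasi-likelihood F test, two-sided. The SE is the log2 change over the square root of F. No pair of libraries held identical values. The members and lists were chosen with earlier results of these data known. All members are accounted for, and those called or at a mean of at least 20 CPM are given per tumour. From each related list up to 4 genes with the smallest p are named, except for an item that is not reported here. Fosl1, Reck, Furin, Fos and Jun lie outside that rule and were chosen after their values were seen. Alternatives were other scaling factors, filters and tests, offsets for GC content and exon length (values for 99.1% of genes), and leaving out each tumour. The steps were tested on simulated data. The tools were edgeR 4.0.16, DESeq2 1.42.0 and limma 3.58.1, in R 4.3.3.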

Additional observations from a re-analysis of the deposited data

Results flagged for a closer look

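In 76 sets of 4 values (38 tested members in 2 groups), 1 tumour stood far from the other 3 by Dixon's criterion in 17 sets. For 4 independent values from a normal distribution the criterion marks about 1 in 20 sets. CPM values need not be normal and the sets share the same tumours. The 17 of 76 can therefore not be set against that rate. Lean tumour 1 was the high value of its group in 7 sets: Mmp1a 0.246 CPM (others 0 to 0.0192), Mmp1b 0.319 CPM (others 0 to 0), Mmp9 11.5 CPM (others 1.47 to 3.01), Mmp10 2.63 CPM (others 0.0888 to 0.137), Mmp12 12.7 CPM (others 2.75 to 4.05), Mmp19 14.1 CPM (others 4.37 to 5.19) and Timp1 58.7 CPM (others 13.1 to 16.8). Obese tumour 3 was the high value in 4 sets: Adamts15 12.1 CPM (others 0.907 to 2.33), Adamts18 2.07 CPM (others 0 to 0.192), Mmp15 20.6 CPM (others 1.86 to 3.05) and Timp3 149.8 CPM (others 10.4 to 28.1). Obese tumour 1 was high in 3 sets: Mmp8 8.09 CPM (others 0.791 to 1.64), Mmp13 243 CPM (others 26.7 to 40.2) and Mmp25 11.6 CPM (others 4.50 to 5.57). The other marked values were Mmp11 60.4 CPM (others 22.2 to 25.3) in obese tumour 2 for a high value, Mmp2 97.4 CPM (others 58.2 to 64.8) in lean tumour 3 for a high value, and Mmp25 1.80 CPM (others 4.49 to 4.85) in lean tumour 2 for a low value.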

How the results depend on the processing

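Of 640 member values under 17 alternatives, 577 kept their direction and their side of the threshold, 47 lost a call, 15 gained one and 1 reversed, the log2 change of Timp2 without obese tumour 2 (−0.12, in a range up to 0.45 when each tumour was left out). Calls held in every alternative that gave a value for 10 of 15 higher members (Mmp8, Mmp11, Mmp12, Mmp13, Mmp14, Mmp27, Adamts7, Adamts8, Adamts14 and Adamts20) and for 6 of 11 lower members (Mmp15, Mmp17, Mmp23, Adamts2, Adamts10 and Timp3). Of these, Mmp8, Mmp27, Adamts20 and Mmp17 passed the filter on counts mainly through the group where they were higher. When each tumour was left out in turn, the number of members called ran from 10 to 16 for higher and from 7 to 11 for lower, the related genes from 21 to 24 and from 27 to 34, and all tested genes from 3820 to 4771 and from 3136 to 5107. The lowest count of lower members, 7 (11 with all tumours), came without obese tumour 4, when Adamts3, Adamts15, Adamts17 and Adamts18 were not called; the cause was not tested. Upper quartile factors moved the median log2 change of all tested genes from −0.04 to −0.25 and library size alone to −0.22, and with upper quartile factors 41.2% of called genes were higher, against 52.1%. No paired analysis was possible because the replicate numbers were given in accession order and pair no tumours. With 4 tumours per group, levels near 3 counts and members that vary within a group, such as Mmp10, Mmp1a and Mmp1b, are the least precise.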

Other observations

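Lean tumour 1 was also the highest lean tumour for several genes of the related lists, chosen here after their values were seen. Fosl1 stood at 17.2 CPM in lean tumour 1 and 0.287, 0.644 and 0.391 in lean tumours 2 to 4, Adam8 at 44.1 CPM in lean tumour 1 and 5.71, 9.62 and 14.1 in lean tumours 2 to 4 and Plaur at 37.5 CPM in lean tumour 1 and 7.89, 13.5 and 14.8 in lean tumours 2 to 4. Each of these values was below the lowest obese value of its gene. Mast cell markers, whose cells carry proteases of their own, summed to 11.6 to 68.4 CPM in obese and 2.15 to 13.0 CPM in lean tumours. Of these, 4 of 5 were called higher, beside 30.9% of all tested genes, among them Cpa3 (log2 change 3.36 ± 0.80, edgeR adjusted p = 0.00867). For 1 of the 5 every obese tumour was above every lean tumour, beside 28.9% of all tested genes.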
